A study of Homo sapiens with 6 samples.

Results

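The genes described here are 10 members of the interleukin-6 (IL-6) cytokine pathway: the ligands IL6, LIF and IL11, the receptor subunits IL6R, IL6ST, LIFR and OSMR, the kinase JAK1, the transcription factor STAT3 and the inhibitor SOCS3. They were taken by gene symbol from a read count table of 27685 genes, all 10 were found, and all 10 were among the 16049 genes that passed edgeR's filter on low counts. The cells were SZ95 sebocytes, a human sebaceous gland line immortalized with the simian virus large T antigen, labelled WT. Control cells (3 libraries) received 20% ethanol for 24 h, and treated cells (3 libraries) received PM2.5, fine airborne particles taken up in 20% ethanol, at 100 μg/mL for the same 24 h. Both groups were kept in phenol-red free medium with antibiotics during the treatment. The serum and epidermal growth factor of the growth medium are not listed for it. SZ95 is a single immortalized line, so the groups do not show how sebocytes of different donors vary.

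In this pathway, IL-6, IL-11 and LIF are secreted cytokines that bind a specific receptor subunit (IL6R, IL11RA or LIFR) and then signal through the shared transmembrane subunit encoded by IL6ST. OSMR pairs with the same subunit for oncostatin M. Janus kinases such as JAK1 then phosphorylate STAT3, which enters the nucleus and induces genes that include SOCS3, whose protein binds the receptor complex and the kinases and shuts the signal down. Phosphorylation is not seen in RNA counts, so only the transcript levels of these parts were measured. In skin, cytokines of this family take part in inflammation and wound repair.

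Library totals ran from 56460553 to 71080000 counts, and 18253 to 18623 genes had a count in each library. Levels are given in CPM, counts per 1000000 counts of a library whose size was adjusted with TMM, the trimmed mean of gene-wise log ratios. Changes were tested with the quasi-likelihood F test of edgeR on the log2 scale, and a gene was called at a Benjamini-Hochberg adjusted p under 0.05 over all 16049 tested genes. Whether samples of one group came from separate cultures is not given in the sources used here, and p-values then rest on a spread that may be technical. Of the 9 sebocyte markers listed 8 were tested, and their summed level was 2880 to 2980 CPM in control and 3540 to 3980 CPM in PM2.5 libraries. Within that list the lipid genes SCD, FASN, FADS2 and PPARG were called higher, whereas KRT7 (1410 and 1030 CPM on average), MUC1 and KRT14 were called lower. The 6 fibroblast markers summed to 46.1 to 50.8 CPM in control and 55.1 to 59.1 CPM in PM2.5 libraries, with COL1A1 and PDGFRB called higher, LUM called lower, and COL1A2, COL3A1 and DCN at 0 to 0.0479 CPM. The 3 endothelial markers summed to 183 to 207 CPM in control and 80.3 to 91.3 CPM in PM2.5 libraries, nearly all of it CDH5, while PECAM1 was at most 0.279 CPM. The 5 leukocyte markers summed to 60.2 to 66.1 and 100 to 112 CPM, nearly all of it CD68, which was called higher. LYZ was called lower (0.434 and 0.234 CPM on average), CD3E was at 0 and PTPRC at most 0.0639 CPM. The 4 melanocyte markers summed to 12.6 to 13.7 CPM in control and 12.3 to 15.9 CPM in PM2.5 libraries. Nearly all of that was PMEL, which was not called. The part of these marker shifts in the results was not tested. In bulk RNA of this kind, fewer cells of a type and less RNA per cell cannot be told apart.

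Sequences around transcription starts are shown first for 4 of the 5 members that rose (IL6, IL11, IL6R and LIFR), in the 5 windows of these genes that held a STAT, AP-1 or NF-kappa-B match. RefSeq windows (GRCh38.p14, 250 bases before to 50 after a start) were found for 9 of the 10 members, in 14 windows, and none was found for LIF. The windows were searched on both strands for TTCNNNGAA (the STAT palindrome), TGACTCA (AP-1), GCGTG (the core letters of the aryl hydrocarbon receptor element) and the NF-kappa-B consensus, and matches are in capitals.
IL6, chr7:22726950-22727249, plus strand: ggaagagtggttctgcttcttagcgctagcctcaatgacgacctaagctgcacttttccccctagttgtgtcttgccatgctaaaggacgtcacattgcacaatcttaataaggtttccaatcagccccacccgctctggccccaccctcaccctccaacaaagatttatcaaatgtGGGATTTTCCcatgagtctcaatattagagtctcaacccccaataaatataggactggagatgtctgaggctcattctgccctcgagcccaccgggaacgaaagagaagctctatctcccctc
IL11, chr19:55370414-55370713, minus strand: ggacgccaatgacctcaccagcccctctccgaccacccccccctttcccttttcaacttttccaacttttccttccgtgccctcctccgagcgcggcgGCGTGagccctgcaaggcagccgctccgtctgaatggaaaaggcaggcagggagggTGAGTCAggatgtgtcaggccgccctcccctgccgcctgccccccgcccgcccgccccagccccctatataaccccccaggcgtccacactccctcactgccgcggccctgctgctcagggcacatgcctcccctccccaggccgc
IL6R, chr1:154405093-154405392, plus strand: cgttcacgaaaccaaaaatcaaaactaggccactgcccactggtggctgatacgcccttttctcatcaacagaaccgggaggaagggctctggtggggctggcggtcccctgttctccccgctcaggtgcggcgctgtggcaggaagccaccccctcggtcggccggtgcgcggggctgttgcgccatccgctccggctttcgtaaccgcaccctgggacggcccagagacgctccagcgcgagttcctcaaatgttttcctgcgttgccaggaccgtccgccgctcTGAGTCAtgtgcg
LIFR upstream start, chr5:38595356-38595655, minus strand: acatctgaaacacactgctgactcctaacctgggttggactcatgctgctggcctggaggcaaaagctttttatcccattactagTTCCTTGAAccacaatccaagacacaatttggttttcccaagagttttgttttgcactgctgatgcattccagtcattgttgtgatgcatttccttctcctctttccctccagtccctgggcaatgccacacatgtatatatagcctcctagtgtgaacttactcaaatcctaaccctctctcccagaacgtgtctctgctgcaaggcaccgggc
LIFR middle start, chr5:38557418-38557717, minus strand: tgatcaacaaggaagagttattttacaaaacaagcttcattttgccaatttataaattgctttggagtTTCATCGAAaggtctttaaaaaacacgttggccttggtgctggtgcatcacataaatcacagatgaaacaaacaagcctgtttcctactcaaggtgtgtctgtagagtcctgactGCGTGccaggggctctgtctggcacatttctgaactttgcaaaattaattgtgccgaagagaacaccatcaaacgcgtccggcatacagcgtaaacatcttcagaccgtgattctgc

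The IL6 window held 1 match, GGGATTTTCC to the NF-kappa-B consensus, which starts at position -73 from the transcription start. IL6ST held the other match to that consensus, at -53, and it was present in 11.3% of 34796 distinct windows of 300 bases. TGACTCA or its reverse complement was found in the IL11 window at -96 and in the IL6R window at +38, against 4.96% of all windows. The STAT palindrome was found only in LIFR among the 9 members, at -165 of the upstream start and -182 of the middle start, against 7.67% of all windows. The 2 SOCS3 windows held no STAT palindrome and 1 GCGTG each, at -96 and -64, and GCGTG was present in 36.4% of all windows. STAT3 (at -170 and -111), JAK1 (-139 and -135, first start), IL11 (-152) and LIFR (-67 in the middle window and -28 in its downstream window) also held GCGTG. These matches describe letters in a window and not binding.

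Of the 10 members, 5 were higher with PM2.5 (IL6, IL11, IL6R, LIFR and SOCS3), 1 was lower (LIF) and 4 were not called (IL6ST, OSMR, JAK1 and STAT3). That is 60% of the members against 43.6% of all tested genes, with 21.7% of the tested genes called higher and 22.0% lower. The PM2.5 and control libraries did not overlap in 7 members, 5 above and 2 below, while 56.3% of the tested genes showed no overlap (28.1% above and 28.1% below). The median log2 fold change of the members was 0.35, against 0.0042 over all tested genes. IL6, LIF, IL6R, LIFR and SOCS3 were called under all 15 alternative settings, whereas the call of IL11 was not stable, as given below with its values.

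**Figure D1:**
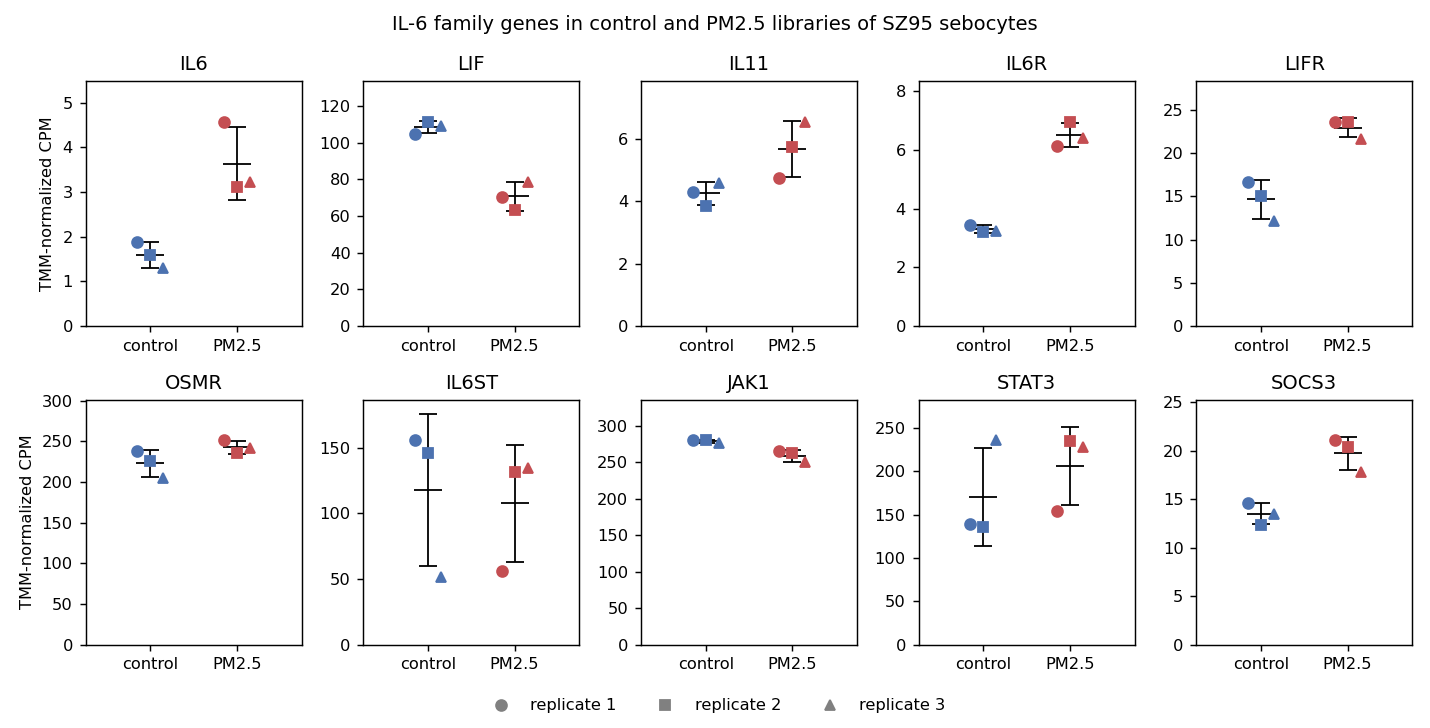
TMM-normalized CPM of the 10 genes in each library (y axis, from 0 in each panel), with control in blue, PM2.5 in red, the replicate number as the marker shape, and the mean ± SD of 3 libraries in black. IL6, IL11, IL6R, LIFR and SOCS3 sit higher in every PM2.5 library and LIF and JAK1 lower, whereas IL6ST and STAT3 spread widely inside both groups.

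Among the ligands, IL6 and IL11 rose and LIF fell. IL6 (Gene ID 3569), the founding cytokine of the family, was measured at 1.89, 1.60 and 1.31 CPM in the control libraries (115, 100 and 89 counts) and at 4.57, 3.11 and 3.23 CPM in the PM2.5 libraries (279, 229 and 186 counts). Every PM2.5 library was above every control library, with PM2.5 replicate 1 the highest. The means were 1.60 ± 0.290 and 3.63 ± 0.813 CPM (SD, n = 3), and the log2 change was 1.19 ± 0.20 (SE, edgeR adjusted p = 0.00224).

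LIF (Gene ID 3976), which encodes leukemia inhibitory factor, was measured at 104.7, 111.3 and 109.2 CPM in control and at 70.4, 63.1 and 78.7 CPM in PM2.5 libraries. The controls lay close together and all PM2.5 libraries were below them. LIF fell from 108.4 ± 3.33 to 70.8 ± 7.79 CPM (SD, n = 3), a log2 change of -0.62 ± 0.078 (SE, edgeR adjusted p = 0.00065).

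IL11 (Gene ID 3589), an IL-6 type cytokine linked to stromal and fibrotic responses, was measured at 4.30, 3.85 and 4.58 CPM in control and at 4.75, 5.72 and 6.54 CPM in PM2.5 libraries. The groups did not overlap, but control replicate 3 and PM2.5 replicate 1 differed by little. IL11 rose from 4.24 ± 0.372 to 5.67 ± 0.895 CPM (SD, n = 3), a log2 change of 0.41 ± 0.13 (SE, edgeR adjusted p = 0.0342). Leaving out 1 library ended the call in 4 cases, namely control replicate 1 (edgeR adjusted p = 0.0745), control replicate 2 (0.105), PM2.5 replicate 2 (0.0817) and PM2.5 replicate 3 (0.0831), and over all 15 settings the adjusted p ran from 0.0156 to 0.105.

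The ligands were also compared with each other inside each library, where library size cancels. The log2 ratio of IL6 to LIF counts was -5.79, -6.12 and -6.38 in control and -3.94, -4.34 and -4.60 in PM2.5 libraries, a difference of 1.80. All PM2.5 ratios were above all control ratios, so the excess of LIF over IL6 counts was smaller in the PM2.5 libraries. The IL6 to IL11 ratio was higher by 0.77 with PM2.5 and the LIF to IL11 ratio was lower (difference -1.03), again without overlap. Each had p = 0.1 in a two-sided exact permutation test of 3 against 3 libraries, the smallest value this design allows, and 0.1 after adjustment over the 4 ratios tested. Every PM2.5 library was above every control library in IL6 and IL11 and below every one in LIF. The lack of overlap of IL6 to LIF and of LIF to IL11, and so their p, was thus fixed by those levels and is no separate evidence.

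**Figure D2:**
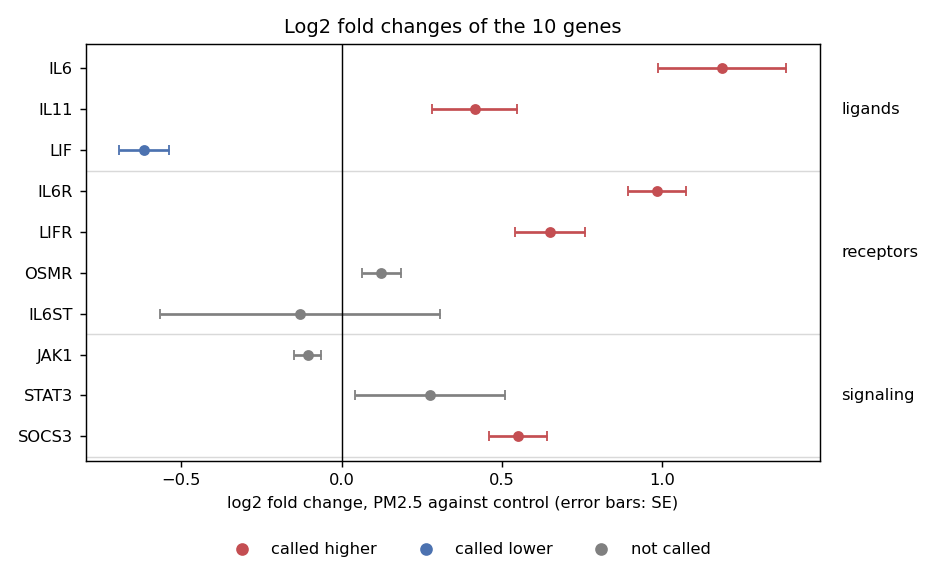
Log2 fold changes of PM2.5 against control for the 10 genes (x axis), grouped by role, with bars for the standard error and colours for the call. IL6 (1.19) and IL6R (0.98) are farthest to the right, LIF (-0.62) is the only called fall, and IL6ST and STAT3 have the widest bars.

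Of the 4 receptor genes, the ligand-binding subunits IL6R and LIFR rose, while OSMR and the shared subunit IL6ST were not called. IL6R (Gene ID 3570), which gives a cell its own IL-6 binding, was measured at 3.45, 3.19 and 3.25 CPM in control and at 6.14, 6.96 and 6.42 CPM in PM2.5 libraries. Its groups were far apart compared with the spread inside each. The means were 3.30 ± 0.134 and 6.51 ± 0.416 CPM (SD, n = 3), and the log2 change was 0.98 ± 0.091 (SE, edgeR adjusted p = 0.000196).

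LIFR (Gene ID 3977), the subunit that binds LIF, was measured at 16.7, 15.1 and 12.2 CPM in control and at 23.6, 23.6 and 21.7 CPM in PM2.5 libraries. Control replicate 3 was the lowest, and no control library reached a PM2.5 library. LIFR rose from 14.7 ± 2.27 to 23.0 ± 1.10 CPM (SD, n = 3), a log2 change of 0.65 ± 0.11 (SE, edgeR adjusted p = 0.00228). The receptor for LIF and its ligand thus had fold changes of opposite sign.

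OSMR (Gene ID 9180), the oncostatin M receptor subunit, is the neighbouring protein-coding gene of LIFR on chromosome 5. It was measured at 238, 225.5 and 205 CPM in control and at 251, 235.5 and 242 CPM in PM2.5 libraries, with PM2.5 replicate 2 below control replicate 1. The log2 change was 0.12 ± 0.061 (SE, edgeR adjusted p = 0.134), and it passed with library size as the only scaling (log2 fold change 0.20, edgeR adjusted p = 0.029). The log2 ratio of IL6R to OSMR counts was -6.11, -6.14 and -5.98 in control and -5.35, -5.08 and -5.23 in PM2.5 libraries. It was 0.85 higher with PM2.5 and did not overlap (two-sided exact permutation test, p = 0.1, n = 3 per group, the smallest possible).

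IL6ST (Gene ID 3572), the subunit through which all these cytokines signal, had the largest spread of the members. It was measured at 155.7, 146.4 and 51.4 CPM in control (9485, 9169 and 3495 counts) and at 56.3, 131.7 and 134.7 CPM in PM2.5 libraries (3437, 9706 and 7769 counts). Control replicate 3 and PM2.5 replicate 1 were low, and the other 4 libraries stood close together. The highest control library was 3.03 times the lowest and the highest PM2.5 library 2.39 times the lowest, a spread wider than that of 99.7% and 99.4% of the 9220 tested genes with a mean count of at least 1000. The median ratio over those genes was 1.10 in control and 1.08 in PM2.5 libraries.

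The log2 change of IL6ST was -0.13 ± 0.44 (SE, edgeR adjusted p = 0.83), and its sign depended on the libraries kept. It was 0.18 without PM2.5 replicate 1, 0.12 without control replicate 1 and 0.055 without control replicate 2. With control replicate 3 and PM2.5 replicate 1 both left out, a choice made after seeing these values, it was -0.18 ± 0.052 (SE, edgeR adjusted p = 0.0456). This fit leaves out the pair of libraries where IL6ST was low, so it describes the libraries kept only. The gap of IL6ST between that pair and the other 4 libraries was wider than the difference between the group means.

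Among the 9220 genes, only IL6ST, CEBPB and SHISA5 were more than 2-fold below both other libraries of the group in control replicate 3 and also in PM2.5 replicate 1. For the other 8 pairings of a control with a PM2.5 library the count was 0 to 2 genes. The first pairing was chosen from IL6ST, which is itself counted there. CEBPB (Gene ID 1051), a transcription factor gene that IL-6 induces, was measured at 113.9, 109.3 and 8.30 CPM in control and at 9.62, 76.3 and 89.1 CPM in PM2.5 libraries. That CEBPB was low in the same 2 libraries as IL6ST follows from the rule that picked it. Its log2 change was -0.40 ± 0.92 (SE, edgeR adjusted p = 0.753), and with both low libraries left out -0.43 ± 0.082 (SE, edgeR adjusted p = 0.014). The second fit leaves out the 2 libraries whose low values picked CEBPB, so its SE and p describe the libraries kept only. These genes were singled out after their values were seen, and what sets these libraries apart for them was not tested.

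**Figure D3:**
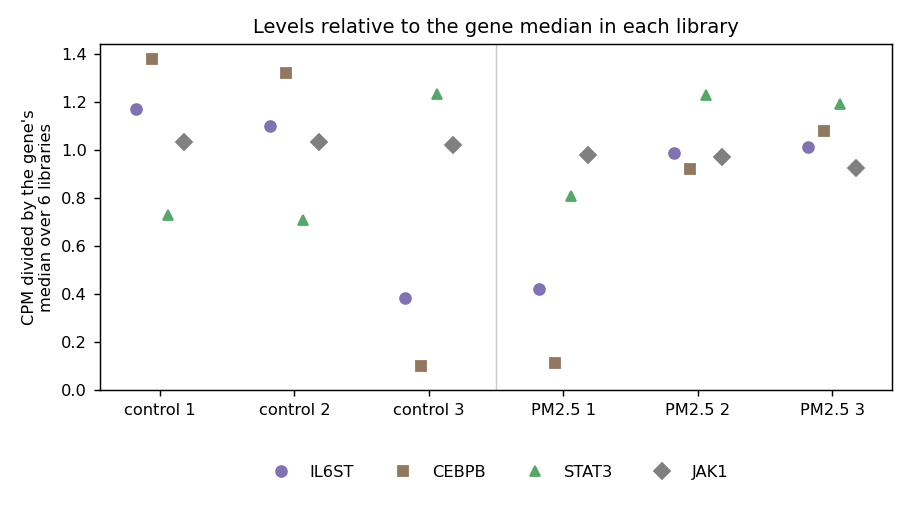
CPM of IL6ST, CEBPB, STAT3 and JAK1 divided by the gene's own median over the 6 libraries (y axis), for each library (x axis, control left and PM2.5 right of the line). IL6ST and CEBPB drop in control replicate 3 and PM2.5 replicate 1, STAT3 is low in control replicates 1 and 2 and PM2.5 replicate 1, and JAK1 stays near 1.

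JAK1 and STAT3, the kinase and the transcription factor, were not called, and SOCS3 rose. JAK1 (Gene ID 3716) was measured at 279.9, 279.9 and 276.0 CPM in control and at 264.8, 262.3 and 249.6 CPM in PM2.5 libraries. All PM2.5 libraries were slightly below all controls, with a log2 change of -0.11 ± 0.042 (SE, edgeR adjusted p = 0.0735). None of the 15 settings called JAK1, and the adjusted p of edgeR, DESeq2 or limma ran from 0.0574 to 0.659.

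STAT3 (Gene ID 6774) was measured at 139.3, 135.4 and 235.6 CPM in control and at 154.5, 235.1 and 228.2 CPM in PM2.5 libraries. The values fell near 2 levels, with control replicate 3 at the upper one and PM2.5 replicate 1 at the lower one, so the groups overlapped. The means were 170.1 ± 56.7 and 205.9 ± 44.7 CPM (SD, n = 3), and the log2 change was 0.28 ± 0.23 (SE, edgeR adjusted p = 0.371). Without control replicate 3 alone it was 0.58 (edgeR adjusted p = 0.0337), and without control replicate 3 and PM2.5 replicate 1 together it was 0.76 (edgeR adjusted p = 0.00126). The second of these was added after the values were seen and leaves 2 libraries a group, so it describes those libraries only.

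SOCS3 (Gene ID 9021), the feedback inhibitor that STAT3 induces, was measured at 14.6, 12.4 and 13.5 CPM in control and at 21.1, 20.4 and 17.8 CPM in PM2.5 libraries. All PM2.5 libraries were above all controls. SOCS3 rose from 13.5 ± 1.11 to 19.8 ± 1.71 CPM (SD, n = 3), a log2 change of 0.55 ± 0.089 (SE, edgeR adjusted p = 0.0019).

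Levels of different genes were compared per kilobase, with the median length of the GENCODE transcripts that carry the table's RefSeq accessions. On this scale control levels ran in the order JAK1 (55.2 CPM per kb), LIF (47.5), OSMR (40.2), STAT3 (33.7), IL6ST (13.3), SOCS3 (4.94), IL11 (2.57), LIFR (2.04), IL6 (1.52) and IL6R (1.02). The ligand LIF was thus far more abundant than IL6 or IL11, and OSMR far more abundant than LIFR or IL6R. STAT3 (26.8 to 46.7 in its control libraries) overlapped with OSMR and LIF, and the ranges of LIFR (1.70 to 2.33) met those of IL11 (2.33 to 2.77) and IL6 (1.24 to 1.79). Transcripts of LIF ran from 592 to 3969 bases, and with the longest transcript of each gene LIF stood at 27.3 and moved from the 2nd to the 4th place. In PM2.5 libraries, IL6 (3.45), IL11 (3.43) and LIFR (3.20 CPM per kb) overlapped in their ranges, and IL6R (2.02) remained the lowest.

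The other ligands of the family that were tested moved in both directions, 2 higher and 1 lower among 4, against 43.6% of all tested genes called. CTF1, which encodes cardiotrophin-1, rose from 10.1 ± 0.111 to 14.9 ± 0.0413 CPM (SD, n = 3), a log2 change of 0.56 ± 0.059 (SE, edgeR adjusted p = 0.000286). EBI3, a subunit of IL-27, also rose (log2 fold change 0.53, edgeR adjusted p = 0.0226), but was no longer called when control replicate 3 (0.0662), PM2.5 replicate 2 (0.071) or PM2.5 replicate 3 (0.0673) was left out. CLCF1, cardiotrophin-like cytokine, fell from 13.0 ± 1.47 to 8.99 ± 0.925 CPM (SD, n = 3), a log2 change of -0.53 ± 0.11 (SE, edgeR adjusted p = 0.00524). CNTF, ciliary neurotrophic factor, had a log2 fold change of -0.47 and was not called (edgeR adjusted p = 0.0637).

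OSM, the oncostatin M gene beside LIF on chromosome 22, had 0 counts in all 6 libraries, which allows a level of up to 0.0407 to 0.0520 CPM in a library (3 counts, counting error only). IL31 also had 0 counts, and IL27, with 0 to 2 counts a library, was not tested. Transcripts of OSMR were thus present without detectable transcripts of its ligand OSM.

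Both other receptor subunits that were tested were higher, against 21.7% of all tested genes. IL27RA, the IL-27 receptor subunit, rose from 8.65 ± 0.271 to 12.5 ± 0.446 CPM (SD, n = 3), a log2 change of 0.53 ± 0.067 (SE, edgeR adjusted p = 0.000631). IL11RA, the IL-11 receptor, rose with a log2 change of 0.27 ± 0.086 (SE, edgeR adjusted p = 0.0368). IL11RA was no longer called when control replicate 1 (edgeR adjusted p = 0.119), control replicate 2 (0.0737), PM2.5 replicate 2 (0.0923) or PM2.5 replicate 3 (0.0649) was left out. CNTFR and IL31RA, with 0 to 18 counts a library, were not tested. Of the proteases that release soluble receptor, ADAM17 was lower (log2 fold change -0.15, edgeR adjusted p = 0.0301) and ADAM10 was not called (-0.22, edgeR adjusted p = 0.212). The ADAM17 call was lost under 9 of the 15 settings, among them each library left out except control replicate 3 (edgeR adjusted p = 0.0927 to 0.116).

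Of 8 other Janus kinase and STAT genes, 4 were higher, 2 lower and 2 not called, 75% called against 43.6% of all tested genes. JAK3, the kinase of the common gamma chain, rose from 6.84 ± 0.285 to 14.4 ± 0.809 CPM (SD, n = 3), a log2 change of 1.08 ± 0.075 (SE, edgeR adjusted p = 6.2e-05). STAT4, which acts in IL-12 signaling, rose from 1.56 ± 0.164 to 3.13 ± 0.389 CPM (SD, n = 3), a log2 change of 1.02 ± 0.14 (SE, edgeR adjusted p = 0.000972). STAT5A and STAT5B, neighbours of STAT3 in the family, rose with log2 fold changes of 0.53 and 0.19 (edgeR adjusted p = 0.000929 and 0.0153), and STAT5B lost its call without control replicate 1 (edgeR adjusted p = 0.0588). The interferon factor STAT2 (-0.26) and the IL-4 factor STAT6 (-0.25) were lower, as log2 fold changes. JAK2 and TYK2 were not called (log2 fold changes 0.28 and 0.052).

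Of 15 inhibitors of the pathway and the phosphatase PTPN11, 4 were higher, 3 lower and 8 not called, with a median log2 fold change of 0.005. The share called, 46.7%, was near the 43.6% of all tested genes. CISH, a SOCS-type inhibitor induced by STAT5, rose from 1.58 ± 0.151 to 2.78 ± 0.235 CPM (SD, n = 3), a log2 change of 0.82 ± 0.13 (SE, edgeR adjusted p = 0.00159). PIAS2 (0.40), PTPN11 (0.34), which links the receptor to RAS signaling, and SOCS7 (0.21) were also higher, and SOCS6 (-0.40), PIAS1 (-0.34) and SOCS1 (-0.50) were lower, as log2 fold changes. SOCS1, the other well known cytokine-induced inhibitor of Janus kinases, thus changed in the opposite direction to SOCS3. SOCS1 was no longer called when control replicate 1 (edgeR adjusted p = 0.0645), control replicate 2 (0.054) or PM2.5 replicate 2 (0.085) was left out, nor PIAS1 when PM2.5 replicate 1 (0.0633) or 3 (0.0662) was, nor SOCS7 when control replicate 1 (0.0557) was.

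Of 30 genes listed as STAT3-responsive 23 were tested, and 4 were higher, 9 lower and 10 not called. That is 56.5% called, against 43.6% of all tested genes (21.7% higher and 22.0% lower), and the median log2 fold change of the list was -0.19. FOS, an immediate early factor, fell from 9.14 ± 0.848 to 3.60 ± 0.778 CPM (SD, n = 3), a log2 change of -1.35 ± 0.15 (SE, edgeR adjusted p = 0.00035). MYC, a driver of cell growth, had a log2 fold change of -1.23 and BIRC5, which encodes survivin, of -0.32 (edgeR adjusted p = 0.000127 and 0.000779). The other lower genes were CCND1, BCL6, JUNB, BCL2L1, IL4R and MCL1, with log2 fold changes of -0.65 to -0.19. The number of lower genes on the list fell to 7 with library size only. It was also 7 when control replicate 1, PM2.5 replicate 1 or PM2.5 replicate 2 was left out. It was 10 without control replicate 3, alone or together with PM2.5 replicate 1, and 10 in the blocked fit. FOS, MYC and BIRC5 kept their calls in all 15 settings, so the lost calls were among the other lower genes.

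The higher genes of that list were TIMP1, ICAM1, HIF1A and PIM3. TIMP1, an inhibitor of metalloproteinases, rose from 20.3 ± 0.908 to 29.8 ± 1.55 CPM (SD, n = 3), a log2 change of 0.55 ± 0.063 (SE, edgeR adjusted p = 0.000421). The adhesion molecule ICAM1 (0.29), the hypoxia factor HIF1A (0.36) and the kinase PIM3 (0.18) rose by smaller log2 fold changes. PIM3 was no longer called when control replicate 1 (edgeR adjusted p = 0.0551) or 2 (0.0523) was left out. Of the genes that make acute phase proteins in liver, FGA, FGG, HP, CRP and A2M had 0 counts in every library, while SAA1 and SAA2, near-identical copies that may share reads, were not called. FGB (0 to 21 counts a library) and LBP (0 to 4) were not tested, and SERPINA3 (0 to 25) was not called. Many of these genes also answer to other factors, so the list is not a readout of STAT3 alone.

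**Figure D4:**
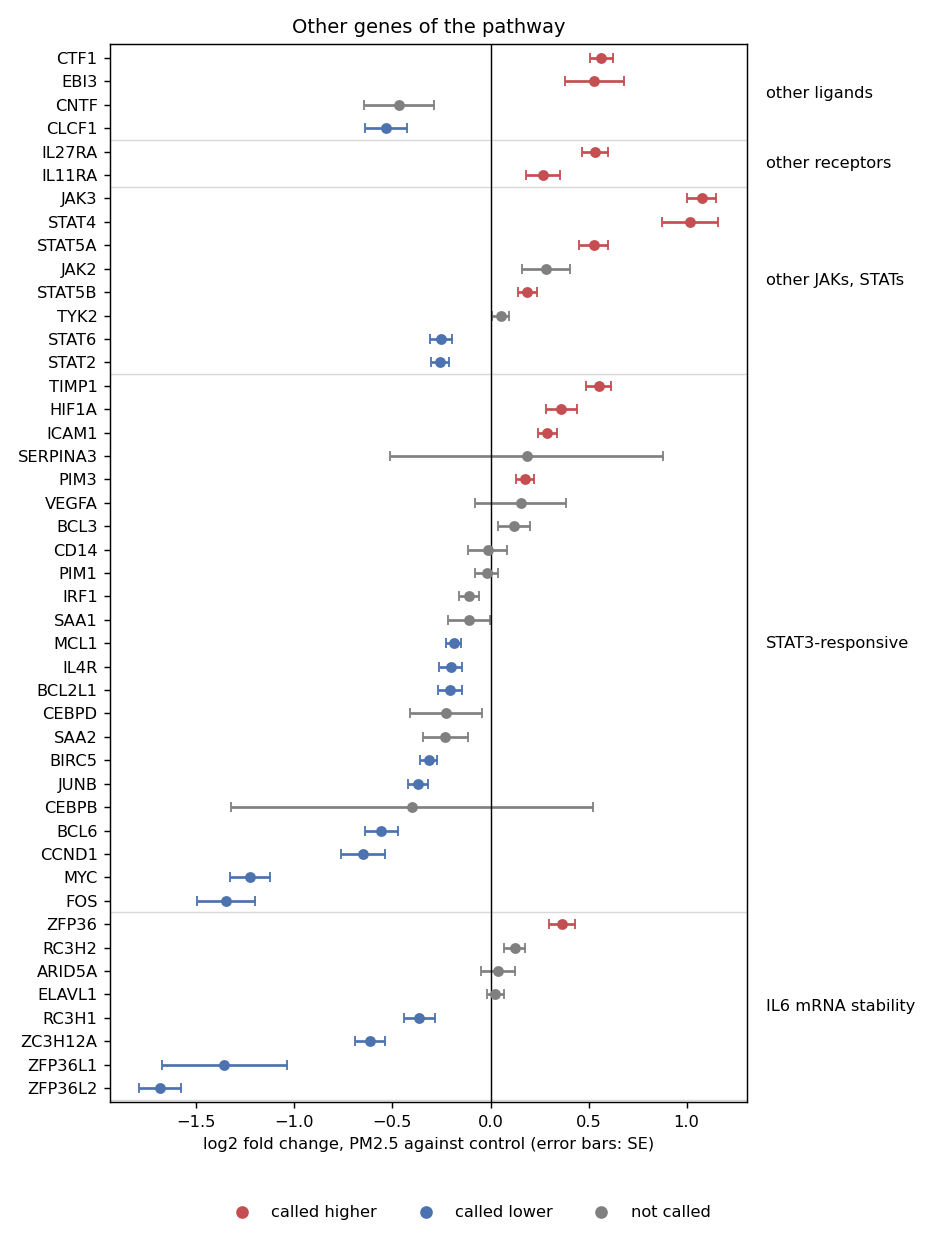
Log2 fold changes of PM2.5 against control (x axis) for the tested genes of 5 other lists of the pathway, with bars for the standard error and colours for the call. JAK3 and STAT4 lie near 1, FOS and MYC are the lowest of the STAT3-responsive genes, and ZFP36L2 and ZFP36L1 are the lowest of all.

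Genes for proteins that control the decay of cytokine mRNAs, IL6 mRNA among them, were tested as well. Of 8, 4 were lower, 1 was higher and 3 were not called, 62.5% called against 43.6% of all tested genes. ZFP36L2, an RNA-binding protein of AU-rich elements, was measured at 207.0, 219.3 and 207.2 CPM in control and at 67.0, 54.6 and 75.4 CPM in PM2.5 libraries. ZFP36L2 fell with a log2 change of -1.69 ± 0.11 (SE, edgeR adjusted p = 4.55e-05). ZC3H12A, the RNase regnase-1 that degrades IL6 mRNA, was measured at 82.7, 77.2 and 67.8 CPM in control and at 50.7, 46.9 and 51.2 CPM in PM2.5 libraries. For ZC3H12A the log2 change was -0.61 ± 0.078 (SE, edgeR adjusted p = 0.000645), with no overlap between the groups.

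RC3H1, which encodes roquin-1, was also lower (log2 fold change -0.36, edgeR adjusted p = 0.00751), and ZFP36, tristetraprolin, was higher (0.37, edgeR adjusted p = 0.00327). ZFP36L1 was lower with a log2 change of -1.36 ± 0.32 (SE, edgeR adjusted p = 0.0103), but control replicate 1 (41.2 CPM) stood far below the other controls (106.0 and 111.5 CPM) and near the PM2.5 libraries (31.5 to 35.4 CPM). Its call was lost with control replicate 3 and PM2.5 replicate 1 left out together (edgeR adjusted p = 0.0761).

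The genes with the pattern most like IL6 over the 6 libraries, by Pearson's r of log2 CPM among 13770 genes of at least 1 CPM, were ASIC1, NOD2 and ACAT1 (r of 0.995, 0.994 and 0.993). For LIF they were ZSWIM4, MAG and LINC01819 (0.999 each) and for SOCS3 LOC102724593, LINC-PINT and HHLA3 (0.995 each). Pearson's r does not measure the size of a change. The log2 fold changes were 0.21, 0.50 and 0.59 for the genes like IL6 (1.19 for IL6 itself). They were -0.82, -1.04 and -1.78 for those like LIF (-0.62) and 0.63, 0.45 and 0.68 for those like SOCS3 (0.55). With 2 groups of 3 libraries such r values reflect the group difference first, and 312 genes for IL6, 1330 for LIF and 594 for SOCS3 exceeded r = 0.95.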

How the data were processed

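Polyadenylated RNA of 6 samples was sequenced from stranded mRNA libraries, 3 control and 3 PM2.5. The authors deposited 1 table of whole-number read counts per gene, not normalized, with NCBI Gene IDs. Per the labels, the tools in their processing notes are HISAT2 2.0.5, Trimmomatic 0.32, DESeq2 and StringTie 1.3.3b, with build hg19, and the way reads were counted is not given in the sources used here. One column name has 1 hyphen more than its label and was read as PM2.5 replicate 1.

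Counts were analysed in R 4.3.3 with edgeR 4.0.16 (filterByExpr with min.count 10 and min.total.count 15, TMM, glmQLFit without the legacy option, glmQLFTest, two-sided, treatment as the only factor). The SE of a log2 fold change is its size divided by the square root of F. Ratios used counts plus 0.5 and exact permutation (scipy 1.17.1). The edgeR step was tested on simulated data. No pair of libraries agreed within sampling noise (chi-square per gene 20.5 to 178).

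The alternatives were DESeq2 1.42.0, limma-voom (limma 3.58.1), relative log expression, upper-quartile and library-size scaling, no filter, a mean count of at least 50, the replicate number as a block, each library left out in turn, and, chosen after seeing the data, 2 libraries left out together. Members and lists were chosen with earlier results of these data known, and 2 genes of the lists are not reported here. Named were all members, up to 3 genes per list and direction with the smallest adjusted p, genes that spell out a small count, and the 3 genes most like IL6, LIF and SOCS3. CEBPB, SHISA5, the other lower STAT3-responsive genes, genes that were not called or not tested, and the motifs were chosen after values or sequences were seen. Promoter windows come from RefSeq (GRCh38.p14), another build than the counts, and lengths from GENCODE 29; OSMR had 5 of 6 and STAT3 2 of 3 accessions matched.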

Additional observations from a re-analysis of the deposited data

How the results depend on the processing

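Of 150 values of the 10 members under 15 alternatives, 139 kept their direction and their side of the threshold. Of the rest, IL11 lost its call 4 times, OSMR gained one with library size only, STAT3 gained one in 2 settings, and IL6ST gained one and changed sign in 3 (range with 1 library left out -0.491 to 0.18, at 0.18 without PM2.5 replicate 1, 0.121 without control replicate 1 and 0.055 without control replicate 2), as given with these genes. CEBPB changed sign without PM2.5 replicate 1 (range with 1 library left out -0.936 to 0.101). It gained a call with control replicate 3 and PM2.5 replicate 1 left out together, a fit that drops the libraries whose values picked it. The cause was not tested. The number of members called was 5 to 7 with 1 library left out and 8 with control replicate 3 and PM2.5 replicate 1 left out together, when 2 members were lower instead of 1. Over all genes 6999 were called, 5325 to 6753 with 1 library left out. Library size only moved the median log2 fold change of all genes from 0.004 to 0.086, and the share of higher genes among those called from 49.7% to 65.2%. Between control and PM2.5 libraries of the same replicate number, deviations from the group means correlated at -0.055, 0.069 and 0.15. Libraries with different numbers were not compared in this way, so these values cannot show whether the numbers pair the samples. A fit with a replicate block called 7231 genes and 6 members. As paired differences the IL6 to LIF ratio had p = 0.25 in an exact sign-flip test, the smallest 3 pairs allow. That value, too, was fixed by the lack of overlap of IL6 and of LIF between the groups. The 4 ratios kept their direction, with IL6 to LIF at 1.62 to 1.95 and IL6 to IL11 at 0.47 to 0.95 with 1 library left out. IL6, with 89 to 279 counts a library, is the least deeply counted member.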
